A study of Homo sapiens with 6 samples.

Results

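GABRA2 encodes a ligand-binding alpha subunit of the GABA-A receptor, and it was examined here with 5 further subunit genes, GABRA4, GABRA5, GABRB1, GABRB2 and GABRG1. These 6 genes were taken out of 18417 named genes on the array, each through the 1 probe set annotated to its symbol. GABRA2 was chosen by its measured level in the glioblastoma line T98G, and the others because they lie beside it on chromosome 4 (GABRG1, GABRA4, GABRB1) or encode subunits of other clusters that can join it in a receptor (GABRA5, GABRB2). Levels by line are therefore given as a description without a test, while the response to the transfection, which the choice did not use, was tested.

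The data come from 3 established human glioblastoma cell lines, T98G, A172 and U87MG, grown in serum. Each line gave 1 array of cells transfected with pre-miR338-5p, a precursor form of the microRNA miR-338-5p (the mimic), and 1 array of cells transfected with a negative control, both harvested 24 hours later, which makes 6 arrays of total RNA. Values are log2 expression after RMA, a procedure that corrects background, equalises the distributions of the arrays and summarises the probes of each gene. No untransfected array was analysed, so all arrays share the handling of a transfection. The 2 arrays of a line differ in what was transfected, and the labels do not say whether they came from separate cultures.

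GABA-A receptors are chloride channels of the Cys-loop family, built from 5 subunits around a pore. Most receptors in the brain combine alpha and beta subunits with a gamma or a delta subunit. GABA binds between beta and alpha, and a gamma subunit beside alpha provides the site of benzodiazepines. Many subunit genes lie in clusters, several of which hold alpha, beta and gamma genes side by side. In neurons the channel mostly inhibits firing, and glial cells and glioma cells can carry it as well.

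The mature sequence of miR-338-5p is shown because it is the agent that was compared with the control. It is taken from RefSeq, build GRCh38.p14, where it lies at chr17:81125923-81125944 on the minus strand, and its seed, bases 2 to 8, is in capitals.
hsa-miR-338-5p: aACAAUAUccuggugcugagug

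The bases before the start sites of 3 neighbouring cluster genes are shown because they belong to genes with very different levels in T98G. Each run holds the 250 bases before the start in the orientation of the gene, from RefSeq, build GRCh38.p14, and capitals mark CG dinucleotides, which read the same on both strands. The runs are chr4:46390301-46390550 for the first of 3 starts listed for GABRA2, chr4:46993582-46993831 for GABRA4 and chr4:46124055-46124304 for GABRG1, all on the minus strand.
GABRA2: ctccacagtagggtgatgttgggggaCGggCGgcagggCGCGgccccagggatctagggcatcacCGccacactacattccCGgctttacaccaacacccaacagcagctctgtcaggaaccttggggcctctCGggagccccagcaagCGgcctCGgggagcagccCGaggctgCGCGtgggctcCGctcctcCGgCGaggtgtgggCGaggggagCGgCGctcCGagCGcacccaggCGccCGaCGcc
GABRA4: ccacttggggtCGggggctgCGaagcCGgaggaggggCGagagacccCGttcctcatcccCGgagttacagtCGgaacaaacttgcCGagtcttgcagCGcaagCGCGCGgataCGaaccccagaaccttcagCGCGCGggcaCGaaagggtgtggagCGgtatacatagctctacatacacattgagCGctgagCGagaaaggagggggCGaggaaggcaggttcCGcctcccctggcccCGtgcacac
GABRG1: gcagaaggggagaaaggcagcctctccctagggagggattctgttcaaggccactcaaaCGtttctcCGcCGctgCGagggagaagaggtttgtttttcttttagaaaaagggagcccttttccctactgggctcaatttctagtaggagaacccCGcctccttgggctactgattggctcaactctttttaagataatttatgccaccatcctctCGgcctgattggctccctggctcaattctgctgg

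The GABRA2 run held 23 CG dinucleotides, as did the run of GABRA4, and the GABRG1 run held 6. Of 35116 promoters known to RefSeq here, 25.8% held at least 23 and 61.9% at least 6, and 93.9% held at least 1. The other 2 starts of GABRA2 had 10 and 6 CG dinucleotides, the start of GABRB1 8 and that of GABRB2 11. The equal counts of GABRA2 and GABRA4 stand beside the levels given next, and the arrays do not tell which start of GABRA2 was used.

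GABRA2 was high in both T98G arrays and low in the arrays of the other lines. Its level was 9.79 in the mimic array and 9.34 in the control array of T98G. In A172 it was 2.92 with the mimic and 3.0 with the control, and in U87MG 3.05 with the mimic and 3.34 with the control. The lowest T98G array therefore stood 5.99 above the highest array of another line. Line means were 9.57 ± 0.32 in T98G, 2.96 ± 0.06 in A172 and 3.20 ± 0.21 in U87MG (SD over 2 arrays). All A172 values lay below those of U87MG, by less than the spread of the U87MG arrays; both A172 arrays were the lowest in 18.9% of all named genes. The mean of T98G exceeded that of the other lines by 6.49, the difference of rank 2 among 13813 genes past the level filter, of which 4 differed by 6 or more. This rank restates why the gene was chosen.

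**Figure D1:**
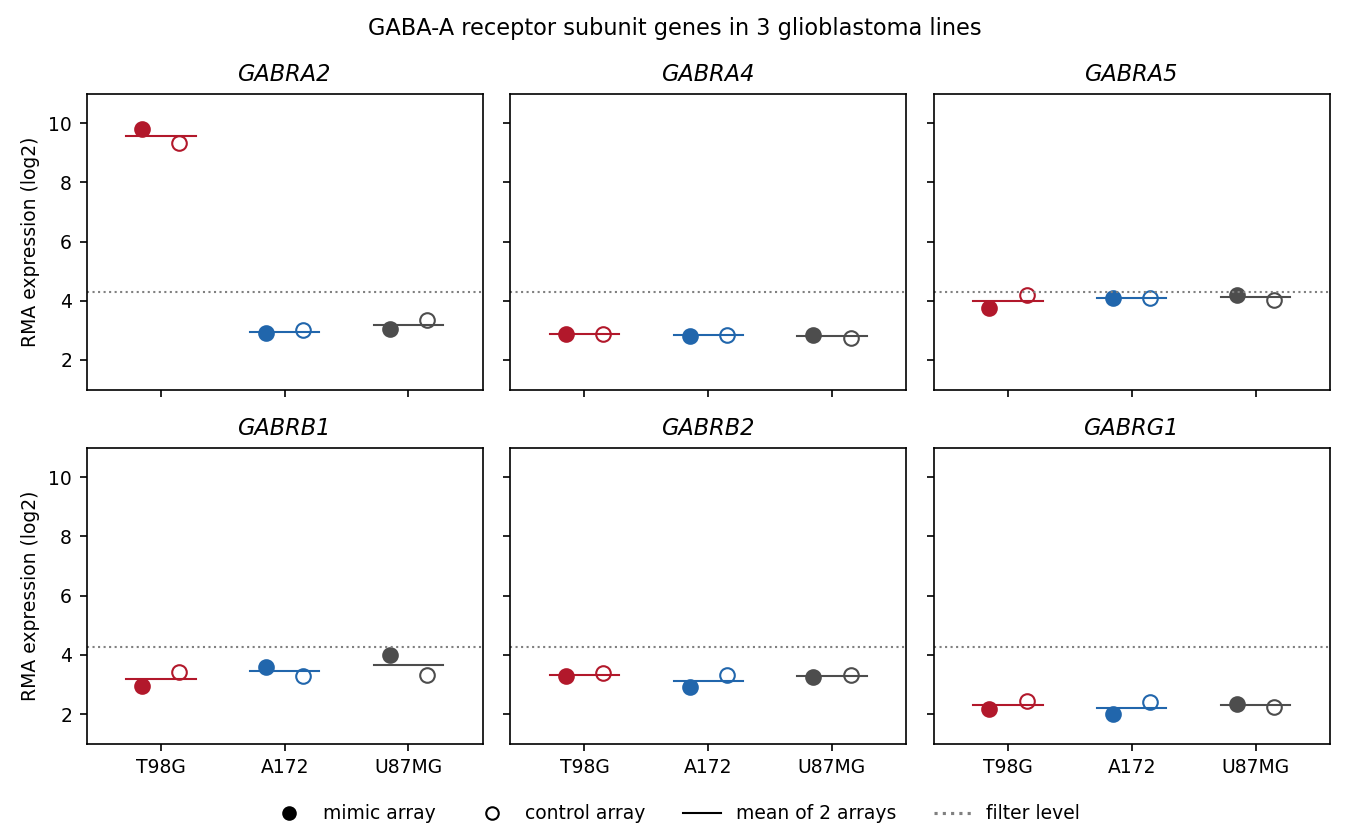
RMA expression (log2, y axis) of the 6 subunit genes in T98G, A172 and U87MG; filled points are mimic arrays, open points control arrays, horizontal bars the mean of the 2 arrays of a line, and the dotted line the filter level of 4.28. GABRA2 stands at 9.34 and above in T98G and at 3.34 and below elsewhere, and the other 5 genes stay below the dotted line on every array.

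The low values call for a mark of what low means on these arrays. The filter level, under which the lowest 25% of genes by mean lie, was 4.28. Genes of olfactory receptors, which are not known for a role in glial cells, had a median mean level of 2.97 over 341 genes, with 1.95 and 4.41 as the 5th and 95th percentile. Probe sets differ in how brightly they report, so these are rough marks and not levels to rank genes by, and no detection calls were used here. GABRA2 in A172 and U87MG, and the other 5 genes in every line, lay within that span. GABRA2 passed the filter only through its T98G arrays, and the other 5 genes did not pass it.

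The measured cluster neighbours of GABRA2 stayed at low values in T98G. GABRG1, the gamma subunit gene beside GABRA2, was at 2.17 with the mimic and 2.45 with the control in T98G. It was at 1.99 and 2.41 in A172 and at 2.36 and 2.25 in U87MG, in the same order of arrays. The T98G mimic value lay inside the range of the other lines. The T98G control value was the highest of all, just above the 2.41 of the A172 control, and the T98G mean was 0.06 above that of the others.

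GABRA4, an alpha subunit gene of the same cluster, was at 2.88 in both T98G arrays. It was at 2.80 with the mimic and 2.86 with the control in A172, and at 2.85 and 2.75 in U87MG. Both T98G values were the highest, but by only 0.02 over the nearest array of A172. Such an order, with both T98G arrays above all others, occurred in 17.6% of all named genes.

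GABRB1, the beta subunit gene of the cluster, was at 2.96 with the mimic and 3.43 with the control in T98G. It was at 3.59 and 3.29 in A172 and at 3.99 and 3.30 in U87MG. The lines overlapped, and the T98G mean was 0.35 below that of the others. In control arrays alone T98G stood 0.13 above the other lines and in mimic arrays alone 0.83 below them, so the sign of this small difference depended on the transfection.

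Both subunit genes from other clusters also stayed low in every line. GABRA5, an alpha subunit gene on chromosome 15 that is known from hippocampal neurons, was at 3.76 with the mimic and 4.2 with the control in T98G. It was at 4.08 on both A172 arrays and at 4.21 with the mimic and 4.04 with the control in U87MG. These values overlapped, with a T98G mean 0.13 below the others, which was 0.39 below in mimic arrays and 0.14 above in control arrays.

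GABRB2, a beta subunit gene on chromosome 5, was at 3.29 with the mimic and 3.37 with the control in T98G. It was at 2.92 and 3.30 in A172 and at 3.27 and 3.31 in U87MG. The T98G mean was 0.13 above the others and the lines overlapped. The 30 values of these 5 genes ran from 1.99 to 4.21, and 0 of them reached the filter level. Over each gene the spread across the arrays was between 0.13 for GABRA4 and 1.03 for GABRB1, against 6.88 for GABRA2. The T98G difference had a median of 0.06 over the 5 genes, from -0.35 to 0.13, beside -0.0017 over all genes past the filter.

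Genes next to the cluster were followed to see whether the region as a whole stood out in T98G. Of the 20 protein-coding genes closest to it in the order of the RefSeq table, 10 on each side, 19 were measured and 12 passed the filter. Of these 1 was higher and 7 lower in T98G than the mean of the other lines with limma, where 24.1% of all 13813 genes were called higher and 24.1% lower. Their median difference was -0.42, and over all 19 it ran from -0.84 to 0.36, far from the 6.49 of GABRA2.

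GNPDA2, an enzyme of hexosamine metabolism and the nearest gene before the cluster, was at 6.07 with the mimic and 6.27 with the control in T98G. It was at 6.81 and 6.86 in A172 and at 7.05 and 7.19 in U87MG, and T98G minus the others was -0.81 ± 0.08 (SE, adjusted p = 0.000241 with limma). COMMD8, the nearest gene after it, was at -0.64 ± 0.11 (adjusted p = 0.00377). It was at 6.61 and 6.49 in T98G, 6.78 and 6.83 in A172, and 7.38 and 7.77 in U87MG. T98G was lowest, but U87MG stood further apart. GUF1, a mitochondrial translation factor, was at -0.71 and SLC30A9, a zinc transporter, at -0.84. In GUF1 too U87MG stood further apart, at 8.42 and 8.47, against 7.34 and 7.32 in T98G and 7.64 and 7.63 in A172. SLAIN2, a microtubule-binding protein, was at -0.50 and NIPAL1, a magnesium transporter, at -0.34. SHISA3 was at -0.61, but A172 stood apart: its values were 4.76 and 4.42 in T98G, 6.35 and 6.24 in A172, and 4.22 and 3.99 in U87MG. The gene called higher was ATP10D, a phospholipid flippase, at 0.36 (adjusted p = 0.0118), and this call was lost without the T98G control array. ATP10D was at 7.79 and 7.92 in T98G, 7.71 and 7.62 in A172, and 7.32 and 7.36 in U87MG. NIPAL1, counted among the 7 called lower, passed the filter only through the other lines, so no p is given. It was at 4.17 with the mimic and 4.18 with the control in T98G, below the filter level of 4.28. Its call was lost without any 1 of the mimic arrays, and its difference was -0.21 without that of T98G.

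COX7B2, a gene for a cytochrome c oxidase subunit known from testis, lies between GABRA2 and GABRA4 and was looked up after its values were seen. It was at 2.66 with the mimic and 2.80 with the control in T98G, at 5.11 and 5.29 in A172, and at 2.97 and 2.98 in U87MG. Within this stretch GABRA2 was thus high in T98G and COX7B2 in A172, with no test of either.

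**Figure D2:**
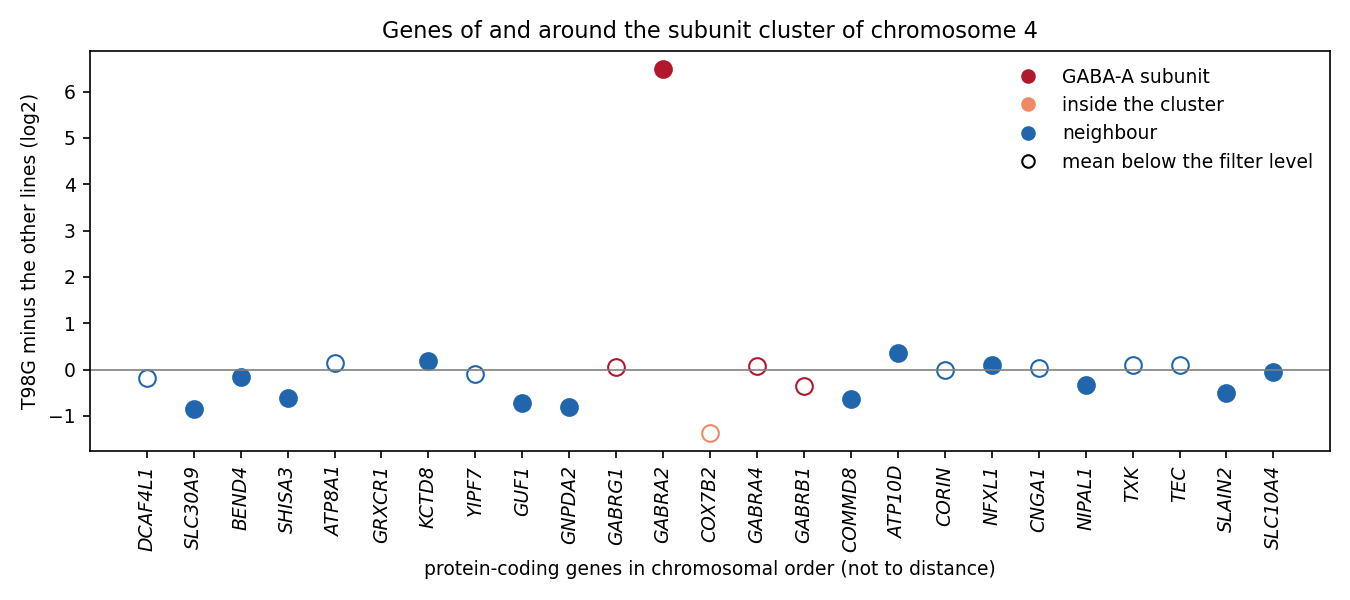
Mean of T98G minus the mean of the other lines (log2, y axis) for the 4 subunit genes of the chromosome 4 cluster, COX7B2 inside it and 19 measured neighbours, in chromosomal order and not to distance; open points have a mean below the filter level. GABRA2 lies at 6.49, every other point between -1.36 and 0.36.

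The rest of the family showed other subunits with a high level in 1 line. Of the subunit genes of the family 15 were analysed here, among them GABRB1 and GABRB2 as the beta subunits. In 8 of the 15 every array was below the filter level, namely GABRA4, GABRA5, GABRA6, GABRB1, GABRB2, GABRG1, GABRR1 and GABRR3. In 5 of the 15 both arrays of a line stood at least 1 above all other arrays, a pattern found in 6.07% of all named genes. Without GABRA2, which was chosen for it, these were 4 of 14. The 5 genes were GABRA2 and GABRE in T98G and GABRA3, GABRG3 and GABRQ in U87MG.

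GABRE encodes the epsilon subunit, which can take the place of a gamma subunit. It was at 7.63 with the mimic and 7.78 with the control in T98G, at 3.71 and 4.07 in A172, and at 3.93 and 3.39 in U87MG. Both T98G arrays were at least 3.56 above the others, and the T98G mean was 3.93 above that of the other lines. GABRE was thus the other subunit gene high in T98G, and it lies on the X chromosome, apart from GABRA2. Like GABRA2 it passed the filter only through T98G, so its difference is given without a test.

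GABRQ, the theta subunit gene, also on the X chromosome with GABRE and of the same cluster, was high in U87MG instead. It was at 3.97 with the mimic and 3.75 with the control in T98G, at 3.36 and 3.71 in A172, and at 8.86 and 8.80 in U87MG. GABRA3, an alpha subunit gene of the same cluster, was at 6.10 and 6.04 in T98G, at 6.48 and 6.39 in A172, and at 8.60 and 8.57 in U87MG. GABRA3 differed between the lines by limma's F test (adjusted p = 2.80e-06), which called 67.5% of all genes. GABRQ passed the filter only through U87MG, and its levels are given without a test. In both genes U87MG was the line that stood apart.

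GABRG3, a gamma subunit gene in the cluster of GABRA5 on chromosome 15, was at 3.08 with the mimic and 2.98 with the control in T98G. It was at 3.43 and 3.03 in A172 and at 5.58 and 5.63 in U87MG, at least 2.14 above every other array. GABRG3 stayed below the filter by its mean and was not tested. GABRA5, in the same cluster, did not stand apart in U87MG. GABRA6, an alpha subunit gene on chromosome 5 like GABRB2, lay between 2.90 and 3.26 on all arrays. GABRD, the delta subunit gene, was higher in T98G by 0.25 (adjusted p = 0.0336), a call lost when any 1 array was left out. Its means were 5.54 in T98G, 5.45 in A172 and 5.13 in U87MG, so that U87MG was the line apart. GABRR2 differed by 0.09 (adjusted p = 0.444).

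**Figure D3:**
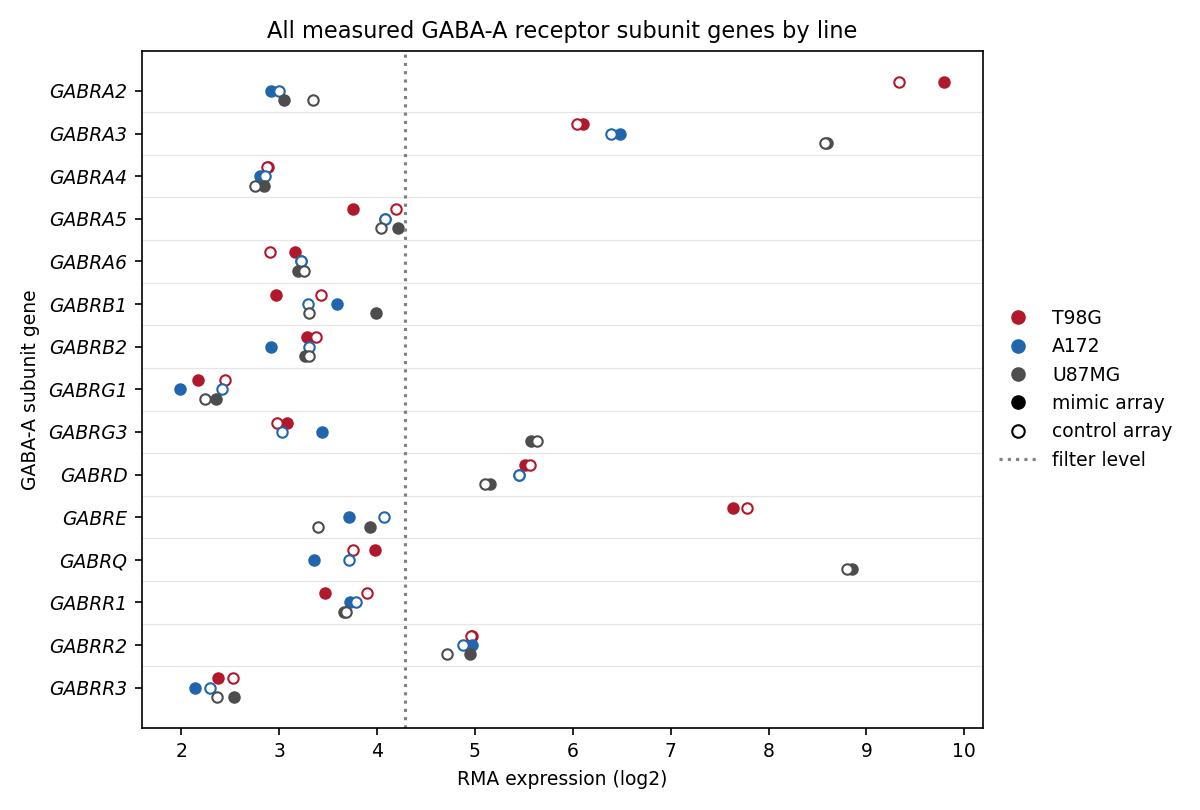
RMA expression (log2, x axis) of the 15 measured GABA-A subunit genes (rows), with T98G in red, A172 in blue and U87MG in grey; filled points are mimic arrays, open points control arrays, and the dotted line is the filter level. Red points stand alone to the right for GABRA2 and GABRE, grey points for GABRA3, GABRG3 and GABRQ.

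Genes of GABA receptors, of making and moving GABA, of receptor anchoring and of chloride transport, and other receptors of the Cys-loop family, were then compared between T98G and the mean of the other lines. In 6 lists with 88 entries 77 were measured and 51 passed the filter; 12 of these were higher and 17 lower in T98G. Of all genes 24.1% were called in each direction, and the median difference of the 51 was -0.06. In 6 of the 29 called genes every array of 1 side, T98G or the others, was below the filter level. These 6, GABRE, GABRQ, PLCL2, WNK3, GLRB and CHRNA9, passed the filter through the other side only. So did GAD1 by its T98G mean of 4.23, though its T98G control array was at 4.44. In 3 of the 29, GABRQ, GABBR2 and SLC38A1, the T98G mean lay between those of the other lines.

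Of 18 genes of receptor assembly, trafficking and anchoring that passed the filter, 5 were higher, 8 lower and 5 were not called. GPHN, gephyrin, which anchors receptors at inhibitory synapses, was at 5.74 with the mimic and 5.41 with the control in T98G. It was at 7.47 and 6.95 in A172 and at 7.71 and 7.82 in U87MG, and T98G minus the others was -1.91 ± 0.13 (SE, adjusted p = 5.61e-05). PLCL2, a phospholipase-related adaptor, was at -1.62, KIF5A, a kinesin motor, at -0.98 and TRAK2, a kinesin adaptor, at -0.77. GABARAPL1, a relative of the receptor-associated protein GABARAP, was at 0.82 and RDX, radixin, which anchors receptors with the alpha subunit of GABRA5, at 0.57. U87MG was the line apart in GABARAPL1, with means of 6.92 in T98G, 6.60 in A172 and 5.62 in U87MG. So it was in KIF5A, with means of 5.49, 5.83 and 7.11 in the same order.

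Chloride transport sets which way current flows through the channel. Of 7 such genes that passed the filter 2 were higher, 3 lower and 2 not called. SLC12A2, the sodium-potassium-chloride cotransporter that brings chloride into cells, was at 8.48 with the mimic and 8.27 with the control in T98G. It was at 6.30 and 6.20 in A172 and at 7.73 and 7.67 in U87MG, and it was higher in T98G by 1.40 ± 0.08 (SE, adjusted p = 2.3e-05). SLC12A7, a potassium-chloride cotransporter that moves chloride out, was at 1.17, and at 0.75 without the T98G control array. Its mean was 6.09 in T98G, 5.72 in A172 and 4.10 in U87MG, so that U87MG was the line apart. WNK3, a kinase that regulates such cotransporters, was at 2.74 with the mimic and 2.34 with the control in T98G, against 5.55 and 5.05 in A172 and 5.96 and 5.50 in U87MG. T98G minus the others was -2.98 for WNK3, which reached the filter level only in the other lines. OXSR1 and STK39, kinases downstream of WNK kinases, were at -0.64 and -0.27. The STK39 call was lost when any 1 array was left out (adjusted p from 0.0528 to 0.141). SLC12A5, the chloride extruder of neurons, did not pass the filter.

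Of 7 genes of GABA synthesis, breakdown and transport 1 was higher, 1 lower and 5 were not called. GAD1, which makes GABA from glutamate, was at 4.03 with the mimic and 4.44 with the control in T98G, at 5.72 and 5.71 in A172, and at 5.56 and 5.48 in U87MG. T98G minus the others was -1.38 ± 0.12 (SE). The T98G mean of 4.23 lay below the filter level of 4.28. GAD1 thus passed the filter through the other lines, so no p is given. SLC38A1, a glutamine transporter, was at 0.28 (adjusted p = 0.0299), and lost its call in 6 of the alternatives. Its mean was 10.89 in T98G, 10.26 in A172 and 10.96 in U87MG, so that A172 was the line apart. Of the GABA-B receptor genes, GABBR2 was at -0.73 (adjusted p = 0.00231), with means of 4.90 in T98G, 6.47 in A172 and 4.79 in U87MG, so that A172 stood apart. GABBR1 at -0.06 was not called.

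Markers of other cells were read beside these values, again against the mean of the other lines, where 24.1% of all genes were called in each direction. Of 13 measured neuronal markers 8 passed the filter, with 1 higher (MAP2, at 2.63) and 4 lower in T98G. In SNAP25 and NEFL, among the 4, the T98G mean lay between those of the other lines. GAP43, also among the 4, was at 4.02 with the mimic and 3.89 with the control in T98G. Both values were below the filter level, so it passed the filter only through the other lines. DCX was between 3.13 and 3.39 on all arrays and GAD2 between 3.17 and 3.84, both below the filter level. Of 6 inhibitory neuron markers past the filter 0 were higher in T98G and 3 lower (GAD1, DLX2 and LHX6). GAD1 passed the filter through the other lines, by its T98G mean. DLX2 and LHX6 stood apart in U87MG, and the T98G means of 5.595 and 6.352 were not below those of A172, 5.404 and 6.296. Of 5 astrocyte markers 2 (SOX9 and GJA1) were higher and 0 lower, with GJA1 at 8.69 in T98G, 7.47 in A172 and 9.14 in U87MG. Of 4 oligodendrocyte lineage markers 0 were higher and 1 lower, of 4 leukocyte markers 0 and 2, and of 3 endothelial markers 0 and 1. The endothelial gene was TEK, with means of 4.01 in T98G, 6.27 in A172 and 4.27 in U87MG. A172 was thus the line apart, and both T98G arrays lay below the filter level. Of the leukocyte genes, CD68 stood apart in U87MG, with means of 8.34, 8.36 and 10.35 in the same order. CSF1R was lowest in T98G, with means of 4.47, 4.93 and 5.33. Of 4 markers common in glioma lines VIM and CD44 were bright on all arrays, with VIM at 11.9 in T98G, 12.4 in A172 and 12.6 in U87MG and CD44 at 11.7, 11.5 and 11.9. EGFR lay between 8.09 and 9.0 over the arrays, and NES between 5.17 and 7.29, highest in A172. GFAP, the filament protein of astrocytes, was at 5.37, 5.22 and 5.07. Their part in the level of GABRA2 was not tested. In RNA of whole cultures fewer cells of a type and less RNA per cell cannot be told apart.

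The genes whose profile over the 6 arrays lay closest to that of GABRA2 were found by the root-mean-square difference between profiles centred on their means, a description without a test. CDH6, a cadherin, was nearest with 0.25, and it was at 10.7 with the mimic and 10.3 with the control in T98G and between 3.58 and 3.67 elsewhere. IGFBP5, which binds insulin-like growth factors, had 0.45 and PI15, a peptidase inhibitor, 0.47. CXCL12, a chemokine, had 0.58. LAPTM5, a lysosomal membrane protein, had 0.88 and PDE5A, a phosphodiesterase of cyclic GMP, 0.88. AKR1B10, an aldo-keto reductase, and CYP4F11, a cytochrome P450, had 0.90 and 0.91. In T98G with the mimic minus the control CDH6 differed by 0.40 and PDE5A by 0.15, as GABRA2 did by 0.46, while the other 6 were between -0.45 and -0.06. Pearson's r with GABRA2 over the 6 arrays was between 0.956 for AKR1B10 and 0.999 for PDE5A. It rests on the contrast of T98G with the rest, which 60 of 4906 genes with a range of at least 1 shared at r over 0.99. By r instead, 2 of the 8 genes stayed among the nearest 8, namely CDH6 and PDE5A.

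**Figure D4:**
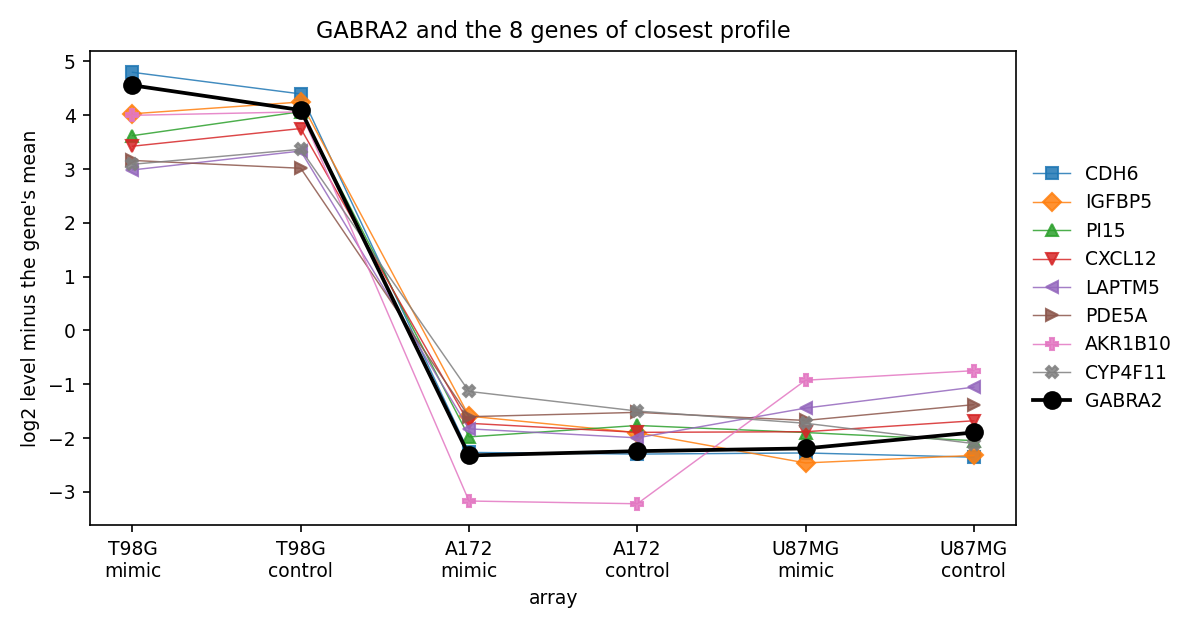
Log2 level minus the mean of the gene over the 6 arrays (y axis) on each array (x axis), with GABRA2 in black and the 8 genes of closest profile in colours. All 9 are high on both T98G arrays, and CDH6 follows GABRA2 most closely.

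The mimic was compared with the control to ask whether miR-338-5p changed these subunits. GABRA2 did not pass: it averaged 5.25 over the mimic arrays and 5.23 over the control arrays, a change of 0.03 ± 0.39 (SD over 3 lines, adjusted p = 0.963 with limma and the line as a block). In that fit 1.11% of the 13813 genes were called. The change was 0.46 in T98G, -0.08 in A172 and -0.30 in U87MG, so the sign differed between the lines, and only in T98G did the gene stand above the low range. Without T98G the mean change was -0.19 (adjusted p = 0.559). A rise of this size in T98G rests on 1 array against 1 and carries no test.

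The other 5 genes lay below the filter and were read from a fit of all 18417 genes, in which 0.326% were called. None of the 5 passed in it, with unadjusted p from 0.127 to 0.859 and adjusted p from 0.635 to 0.972. GABRB1 had the widest spread, with 0.69 in U87MG, 0.30 in A172 and -0.47 in T98G and a mean of 0.17 ± 0.59. GABRG1 had a mean of -0.20 ± 0.28, which was -0.085 without A172 and -0.351 without U87MG. GABRB2 had -0.17 ± 0.19, which was -0.064 without A172. GABRA5 was at -0.09 ± 0.31 and GABRA4 at 0.01 ± 0.08. Over all 6 genes the median change was -0.04, beside 0.01 over all genes past the filter.

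**Figure D5:**
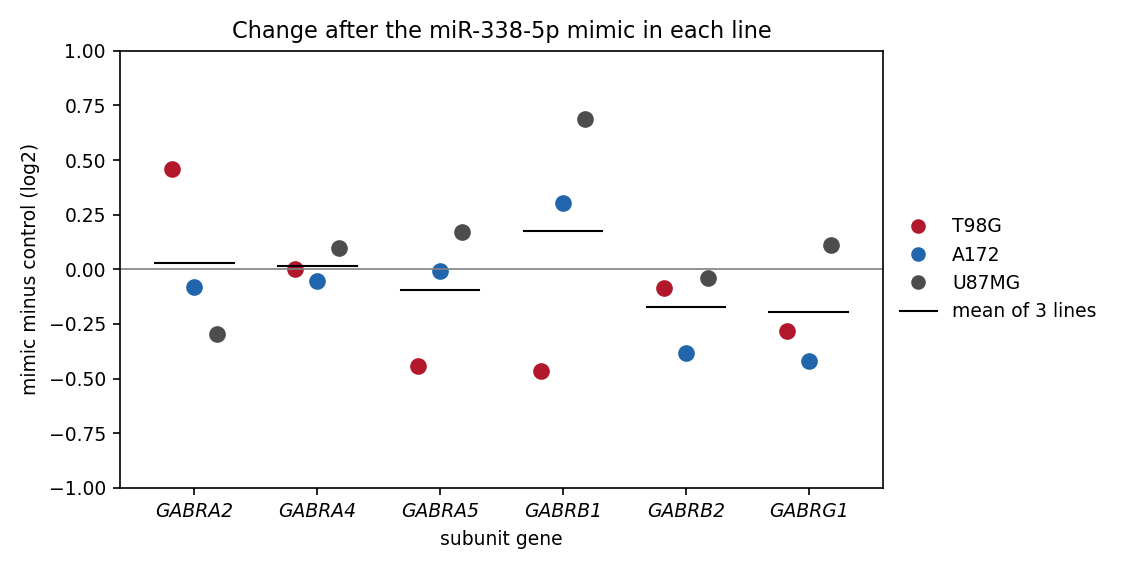
Mimic minus control (log2, y axis) for the 6 subunit genes (x axis), with T98G in red, A172 in blue and U87MG in grey and a bar at the mean of the 3 lines. Points of the same gene lie on both sides of 0 for all but GABRB2, and the means run from -0.20 to 0.17.

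A few genes were read as a check that the mimic arrays differ from the control arrays. PPP2R5A, which steers the phosphatase PP2A, fell by 1.57 (adjusted p = 0.00247). NDFIP1, an adaptor of ubiquitin ligases, fell by 0.96 (adjusted p = 0.00549) and RHEB, the activator of mTOR complex 1, by 0.93 (adjusted p = 0.0111). They were chosen with earlier results of these arrays known and so check the transfection only in part. Of the 51 GABA pathway and receptor genes 1 was called with the mimic and 5 had an unadjusted p under 0.05, beside 1.11% and 11.8% of all genes. The called gene was WNK3, named after its values were seen, which averaged 4.75 over the mimic arrays and 4.30 over the control arrays. In T98G it was at 2.74 with the mimic and 2.34 with the control, below the filter level of 4.28 and in the low range. WNK3 rose by 0.45 ± 0.05 (SD over 3 lines, adjusted p = 0.0478), by 0.40 in T98G, 0.50 in A172 and 0.46 in U87MG. This call was lost without any 1 of the lines (adjusted p from 0.0873 to 0.26) without the level filter (0.104), with a variance prior that follows the level (0.064) and without the block, while the size of the change stayed between 0.43 and 0.48.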

How the data were processed

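Total RNA from 6 transfections was hybridised to 1 Affymetrix Human Gene 1.0 ST array each. The authors deposited log2 values made with RMA in the package oligo under R 3.0.1, per the submitters' processing notes; scanner files were not used here. Of 33297 probe sets, 19460 were annotated to 1 symbol, 1754 to several and 12083 were not listed; symbols were updated through RefSeq GRCh38.p14 (19429 matched), and the brightest probe set stood for each of 18417 genes.

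The lowest 25% of genes by mean were left out, which kept 13813. A linear model with the line and the transfection was fitted with limma 3.58.1 in R 4.3.3 (2 residual degrees of freedom), with Benjamini-Hochberg adjustment over all genes kept and a threshold of 0.05. T98G was compared with the mean of the other lines, and all lines with an F test, in the same fit. SEs come from that fit. Lines pair the arrays: deviations of same-line arrays from their group means correlated at 0.951 to 0.958. The labels do not state separate cultures beyond the lines. Mimic and line p-values rest on the same residual spread, that of the mimic change between 3 lines. For a line this spread comes from 2 differently transfected arrays, with the shared mimic change removed. Limma drew each variance towards those of all genes, which gave 6.56 total degrees of freedom. The number of arrays limits the precision. The fit was tested on simulated data.

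Genes named are the members, the called genes of the GABA lists with the largest differences, called neighbours, and the 8 genes most like GABRA2. The members and lists, among them markers of other cell types, were chosen with earlier results of these data known; the olfactory receptor genes, COX7B2 and the WNK3 response were added after their values were seen. Alternatives changed the filter, centring, normalization, variance prior, probe set rule and block, or left out arrays. Some genes of the family are not reported here.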

Additional observations from a re-analysis of the deposited data

Results flagged for a closer look

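GABRA2 differed with the mimic in opposite directions between lines, by 0.46 in T98G and by -0.30 in U87MG, and both sizes exceed 0.25. GABRB1 did so the other way round, by 0.69 in U87MG and by -0.47 in T98G. Each value compares 1 mimic array with 1 control array, and the difference between the lines was not tested. GABRB1 lay below the filter level of 4.28 on every array, as did GABRA2 in U87MG.

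A probe set annotated to both MIR224 and GABRE, which the comparisons by gene did not use, was higher in T98G than in the other lines. Its T98G mean of 4.16 still lay below the filter level of 4.28. It was at 3.91 with the mimic and 4.41 with the control in T98G, at 2.36 and 2.19 in A172, and at 2.27 and 1.99 in U87MG. The lowest T98G array stood 1.55 above the highest other array.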

How the results depend on the processing

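Calls for the mimic depended on the settings: 153 genes became 60 without the filter, 360 with the lower 50% left out, 236 with arrays centred on their medians and 471 with a variance prior that follows the level. With no replicate block the count was 0 (127 at an unadjusted p under 0.05), and WNK3 had an adjusted p of 1.0. Leaving out 1 line gave 0 to 117 calls: 64 without A172, 117 without T98G and 0 without U87MG, where 1339 had an unadjusted p under 0.05. Over the same omissions the GABRA2 change lay between -0.19 (without T98G) and 0.19, GABRA4 between -0.027 (without U87MG) and 0.049, GABRA5 between -0.22 and 0.081 (without T98G), GABRB1 between -0.081 (without U87MG) and 0.495, GABRB2 between -0.235 and -0.064 (without A172), and GABRG1 between -0.351 (without U87MG) and -0.085 (without A172). The T98G difference of GABRA2 was 6.81 in mimic arrays and 6.16 in control arrays alone. The 29 called genes of the GABA lists became 18 with the lower 50% left out, the 8 called neighbours became 4 with 5 genes on each side, and 2 of the 8 genes like GABRA2 stayed with Pearson's r; the first pair of settings tests fewer genes, and otherwise the cause was not tested. Of 347 repeats over 30 named genes in T98G against the other lines, 310 kept their call, 37 lost it and 0 turned direction. All 30 were named because they had been called, so these counts describe how the calls held and test nothing further. Among them GABRE, GABRQ, PLCL2, WNK3, GLRB, CHRNA9 and NIPAL1 passed the filter through one side only, as did GAD1 by its T98G mean. With 3 lines and 1 array each, within-line changes of the mimic have no error of their own.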

Other observations

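Other receptors of the Cys-loop family were also read. Of 12 such genes past the filter 2 were higher and 2 lower in T98G, beside 24.1% of all genes in each direction. CHRNA9, a nicotinic acetylcholine receptor subunit, was at 3.33 with the mimic and 3.05 with the control in T98G, at 3.33 and 3.52 in A172, and at 6.60 and 6.63 in U87MG. GLRB, the beta subunit of the glycine receptor, which binds gephyrin, was at -0.80 in T98G minus the others. Both genes passed the filter only through other lines than T98G, so no test is given. CHRNA5 at 0.38 and CHRNB4 at 0.25, subunits of nicotinic receptors, were higher with limma, with adjusted p of 0.0462 and 0.049. CHRNA5 lost its call in 5 of the alternatives and CHRNB4 in 8. Both calls were lost without the filter, without either T98G array and without the U87MG mimic array. They were also lost without the A172 control array, where CHRNA5 was at 0.25. The CHRNA5 mean was 8.12 in T98G, 7.51 in A172 and 7.97 in U87MG, so that A172 was the line apart.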
